A study of Mus musculus with 8 samples.

Results

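Transcripts of the hypoxia-inducible factor (HIF) system were followed in mouse kidney through 10 genes: 3 HIF alpha subunits, 2 prolyl hydroxylases and 5 HIF targets. The genes were Hif1a, Epas1, Hif3a, Egln1, Egln3, Vegfa, Slc2a1, Adm, Bnip3 and Car9. They were found as the non-control probes whose RefSeq accession belongs to one of these symbols, which gave 18 of 55681 probes. All 10 genes had a probe that passed the filter on background and are among the 14209 genes measured. Hif3a was listed because its signal rose with cinacalcet in this same comparison, and the others were listed around it with those results in view. The difference between the groups is therefore given for these 10 genes as a description, without a test.

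Whole kidney from mice fed cinacalcet hydrochloride (4 samples) was compared with kidney from mice on standard chow (4 samples). Cinacalcet is a calcimimetic drug, which makes the calcium-sensing receptor more responsive to calcium. The dose is labelled as 1 mg per g body weight, the feeding lasted 5 days, and every mouse is labelled as male and 12 weeks old. The strain is not given in the sources used here, and the labels do not state that each sample is a separate animal, so the p-values cover variation among these 8 samples, which may be technical. Each RNA was read on 1 one-colour Agilent array, all on 1 slide. Levels below are log2 intensities relative to the array's 75th percentile, and fold changes are cinacalcet over control. In a whole organ, fewer cells of a type and less RNA per cell cannot be told apart.

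The 75th percentile itself lay between 202.9 and 257.1 intensity units, and between 51.8% and 58.0% of spots cleared the scanner's background test. With 4 arrays in each group, their number limits the precision, and so does the spread among arrays of a group. On 3 arrays (control 4, cinacalcet 2 and cinacalcet 3) none of 4 Y-linked genes was well above background, although the mice are labelled male, while 3 or 4 of these genes were on each of the other 5. Results are therefore also given with that split as a block. All 10 kidney markers (among them Umod, Slc12a1, Lrp2, Nphs1 and Aqp2) were measured.

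HIF alpha subunits pair with ARNT and bind the core sequences ACGTG and GCGTG in hypoxia response elements. In the presence of oxygen the prolyl hydroxylases EGLN1 and EGLN3 mark HIF-1 alpha and HIF-2 alpha (from Epas1) for destruction through the VHL protein, so these subunits are controlled largely at the protein level, which an array of transcripts does not read. HIF-3 alpha occurs in several splice forms, some of which hold back the other subunits. In kidney, HIF-1 alpha acts mainly in tubule cells, and HIF-2 alpha in endothelial and interstitial cells, where it drives erythropoietin.

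The promoters of 4 of the genes are shown because they stand for the patterns that follow: Hif3a, Bnip3 and Adm, whose groups did not overlap, and Car9, whose level was ordered by the Y-linked split. Each runs 5′ to 3′ on the gene's own strand from 250 bases before the start of transcription to 50 after it, and comes from RefSeq (GRCm38.p6). Capitals mark ACGTG or GCGTG on either strand, so that CACGT and CACGC are matches on the opposite strand and CACGTG holds 2 overlapping matches.
Hif3a promoter, chr7:17062378-17062677, minus strand: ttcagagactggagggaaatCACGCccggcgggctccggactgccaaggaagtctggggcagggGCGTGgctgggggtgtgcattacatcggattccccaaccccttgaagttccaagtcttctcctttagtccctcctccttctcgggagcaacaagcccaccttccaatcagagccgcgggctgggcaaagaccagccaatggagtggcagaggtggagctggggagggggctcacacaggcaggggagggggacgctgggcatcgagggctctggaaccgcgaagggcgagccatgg
Bnip3 promoter, chr7:138909457-138909756, minus strand: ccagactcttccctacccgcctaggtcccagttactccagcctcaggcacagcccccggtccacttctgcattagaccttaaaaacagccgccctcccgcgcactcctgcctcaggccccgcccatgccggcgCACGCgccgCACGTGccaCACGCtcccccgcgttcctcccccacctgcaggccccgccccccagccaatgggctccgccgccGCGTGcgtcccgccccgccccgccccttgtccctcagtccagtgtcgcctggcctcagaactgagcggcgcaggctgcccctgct
Adm promoter, chr7:110627407-110627706, plus strand: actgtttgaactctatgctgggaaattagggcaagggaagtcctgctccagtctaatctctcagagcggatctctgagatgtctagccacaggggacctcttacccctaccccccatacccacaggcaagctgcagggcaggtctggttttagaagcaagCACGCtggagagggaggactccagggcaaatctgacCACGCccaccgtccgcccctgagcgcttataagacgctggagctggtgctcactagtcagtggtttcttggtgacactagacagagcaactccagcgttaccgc
Car9 promoter, chr4:43506776-43507075, plus strand: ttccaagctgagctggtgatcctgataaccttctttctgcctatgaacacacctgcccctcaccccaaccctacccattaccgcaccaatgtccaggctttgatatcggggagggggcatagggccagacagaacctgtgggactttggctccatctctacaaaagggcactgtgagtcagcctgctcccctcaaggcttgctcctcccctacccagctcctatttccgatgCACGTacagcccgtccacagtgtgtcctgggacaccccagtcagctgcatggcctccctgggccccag
The Hif3a window holds 2 matches, both GCGTG, of which the nearer to the start of transcription begins 186 bases before it. The Bnip3 window holds 5, the Adm window 2 and the Car9 window 1, which begins 18 bases before the start. Promoters were found for 9 of the 10 genes, and all 9 had a match in at least 1 of their promoters. Among all 32851 promoters of the same length 43.8% have a match, and among the 27025 genes they belong to 46.7% do. A match of these letters is not evidence of binding.

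Hif3a had the widest difference between the groups among the 10 genes. Its level was -1.98, -1.29, -0.81 and -1.75 on control arrays 1 to 4 and 0.30, 0.23, 0.22 and 1.41 on cinacalcet arrays 1 to 4. The groups did not overlap, and 3 of the 4 cinacalcet values were nearly equal while cinacalcet 4 stood above them. The mean went from -1.46 ± 0.52 to 0.54 ± 0.58 (SD, n = 4), a log2 fold change of 2.00 (SE 0.34) or 4.00-fold. Without cinacalcet 4 the log2 fold change was 1.71, and with any 1 array left out it lay between 1.71 and 2.21. It was 2.13 with the Y-linked split as a block, and 2.22 when only those 5 arrays with Y-linked transcripts entered the fit. Within slide row 1 it was 1.31 and within slide row 2, which held cinacalcet 4, it was 2.69.

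The array carries 3 Hif3a probes, all designed to the same transcript record. Only the brightest was well above background on all 8 arrays. The dimmest was above background on 0 of 4 control arrays and 1 of 4 cinacalcet arrays, at -6.46 to -6.03 in controls and -4.87 to -4.29 with cinacalcet. Those groups did not overlap either, but the values lie too near the detection limit to give a fold change. The remaining probe was above background on 1 array of each group, control 3 at -2.88 and cinacalcet 4 at -3.49, and its groups overlapped. Which splice forms each probe reads is not given in the sources used here.

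**Figure D1:**
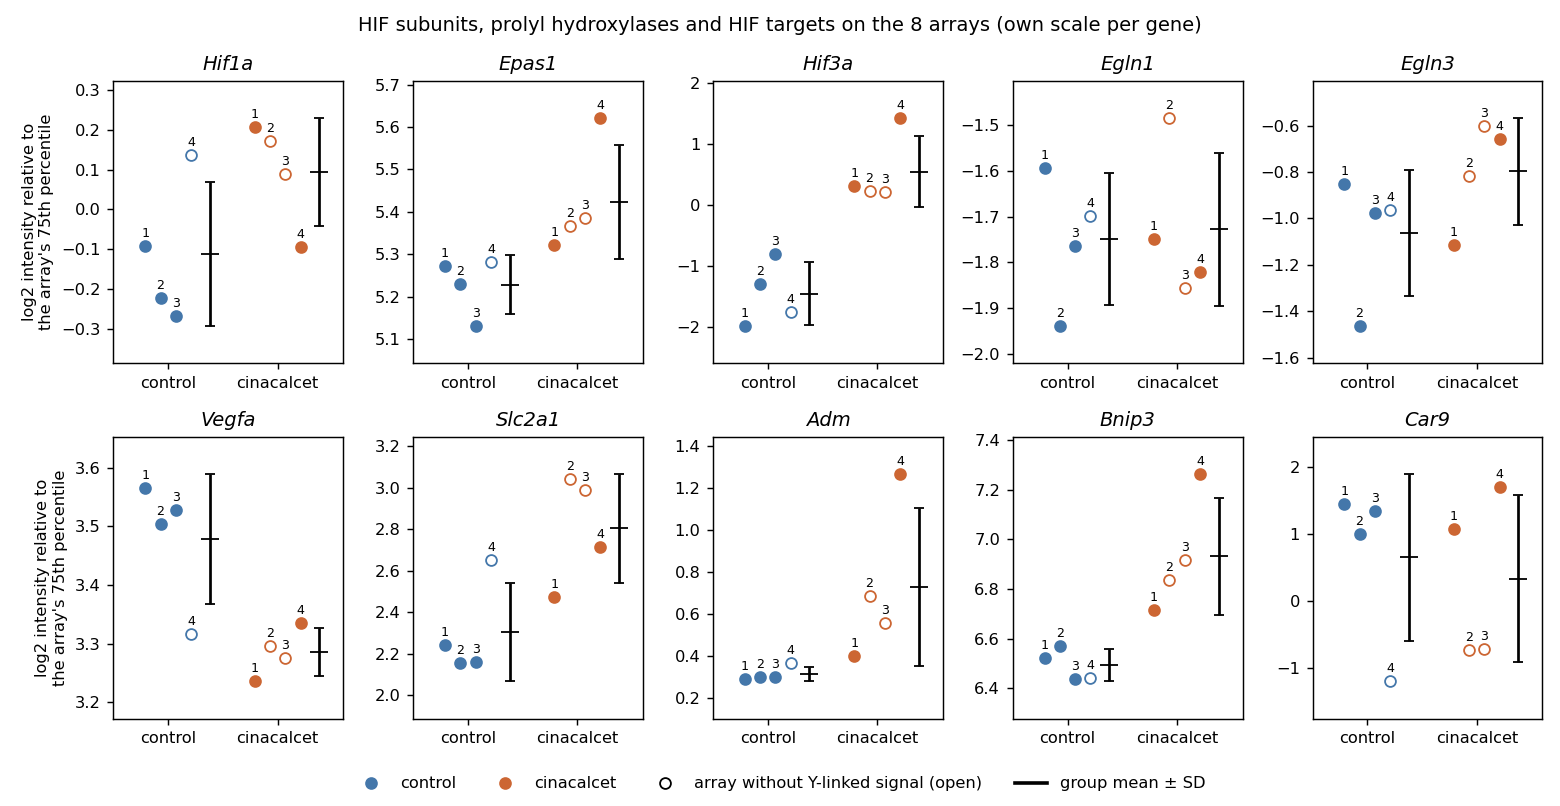
Levels of the 10 genes on each array, as log2 intensity relative to the array's 75th percentile, with a separate scale for each gene. Points are arrays numbered by replicate, open points are the 3 arrays without Y-linked signal, and bars are the group mean ± SD. The Hif3a groups are separated by the widest gap, Adm and Bnip3 peak on cinacalcet 4, and Car9 is low on the 3 open points.

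The other alpha subunits differed far less between the groups. Hif1a, the subunit found in most cell types, was at -0.09, -0.22, -0.27 and 0.14 in controls and 0.21, 0.17, 0.09 and -0.10 with cinacalcet, and the groups overlapped. Its log2 fold change was 0.20 (SE 0.11), with 0.39 in slide row 1 and 0.02 in slide row 2. Epas1 was at 5.27, 5.23, 5.13 and 5.28 in controls and 5.32, 5.37, 5.38 and 5.62 with cinacalcet, without overlap but with only 0.20 (SE 0.08) between the means. The other 2 Epas1 probes overlapped between groups and gave log2 fold changes of 0.03 and 0.08, so the separation rests on 1 of 3 probes.

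The prolyl hydroxylase transcripts overlapped between the groups. Egln1, the main oxygen sensor of the family, was at -1.59, -1.94, -1.76 and -1.70 in controls and -1.75, -1.48, -1.86 and -1.82 with cinacalcet. Its log2 fold change of 0.02 (SE 0.11) lies well inside the spread between arrays. Egln3, a hydroxylase gene that is itself a HIF target, was at -0.85, -1.46, -0.98 and -0.97 in controls and -1.11, -0.82, -0.60 and -0.66 with cinacalcet. Its log2 fold change was 0.27 (SE 0.16), and 0.04 on its dimmer probe.

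Among the HIF targets, Bnip3 and Adm had groups that did not overlap, with small differences. Bnip3, a mediator of mitophagy, was at 6.52, 6.57, 6.44 and 6.44 in controls and 6.71, 6.84, 6.91 and 7.26 with cinacalcet. The log2 fold change was 0.44 (SE 0.12), and its other probes gave 0.40 without overlap and 0.18 with overlap. Adm, the gene of the vasodilator peptide adrenomedullin, was at 0.29, 0.30, 0.30 and 0.37 in controls and 0.40, 0.69, 0.56 and 1.27 with cinacalcet. Controls were within 0.08 of each other while the cinacalcet arrays spread over 0.87, with cinacalcet 4 again the highest. The Adm log2 fold change was 0.41 (SE 0.17), and 0.23 without cinacalcet 4.

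Slc2a1 and Vegfa overlapped between groups on the probe that stood for each gene. Slc2a1, encoding the glucose transporter GLUT1, was at 2.24, 2.16, 2.16 and 2.65 in controls and 2.48, 3.04, 2.99 and 2.72 with cinacalcet. The overlap came from control 4, which lay above cinacalcet 1. The log2 fold change was 0.50 (SE 0.16), and 0.39 with the Y-linked split as a block. Vegfa, encoding the main angiogenic growth factor made by podocytes and tubules, was at 3.57, 3.50, 3.53 and 3.32 in controls and 3.24, 3.30, 3.28 and 3.34 with cinacalcet. Its estimate was negative, at -0.19 (SE 0.07), and the other Vegfa probe gave -0.35 with all 4 cinacalcet arrays (2.93 to 3.11) below all 4 controls (3.24 to 3.46).

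Car9, encoding the membrane carbonic anhydrase IX and often used as a hypoxia marker, was ordered by the Y-linked split, while the treatment groups overlapped. It was at 1.45, 1.01, 1.35 and -1.20 in controls and 1.08, -0.73, -0.72 and 1.70 with cinacalcet. The 3 arrays without Y-linked signal were all at or below -0.72 and the other 5 at or above 1.01. Arrays with Y-linked signal were higher by 2.47 among controls and by 2.12 among cinacalcet arrays. This order, with all 3 arrays below all 5, was found in 14.9% of 14205 genes, the Y-linked ones left out. By the difference between the means of the 5 and the 3 arrays Car9 ranked 77 of these genes. The difference between cinacalcet and control was -0.32 (SE 0.76), and it changed sign to 0.25 with the split as a block and to 0.12 when the 3 arrays were left out. Slc2a1 ran the other way, with the arrays with Y-linked signal lower by 0.47 among controls and 0.42 among cinacalcet arrays, although their ranges overlapped (2.16 to 2.72 against 2.65 to 3.04). The split was defined from the arrays and its part in these levels was not tested.

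**Figure D2:**
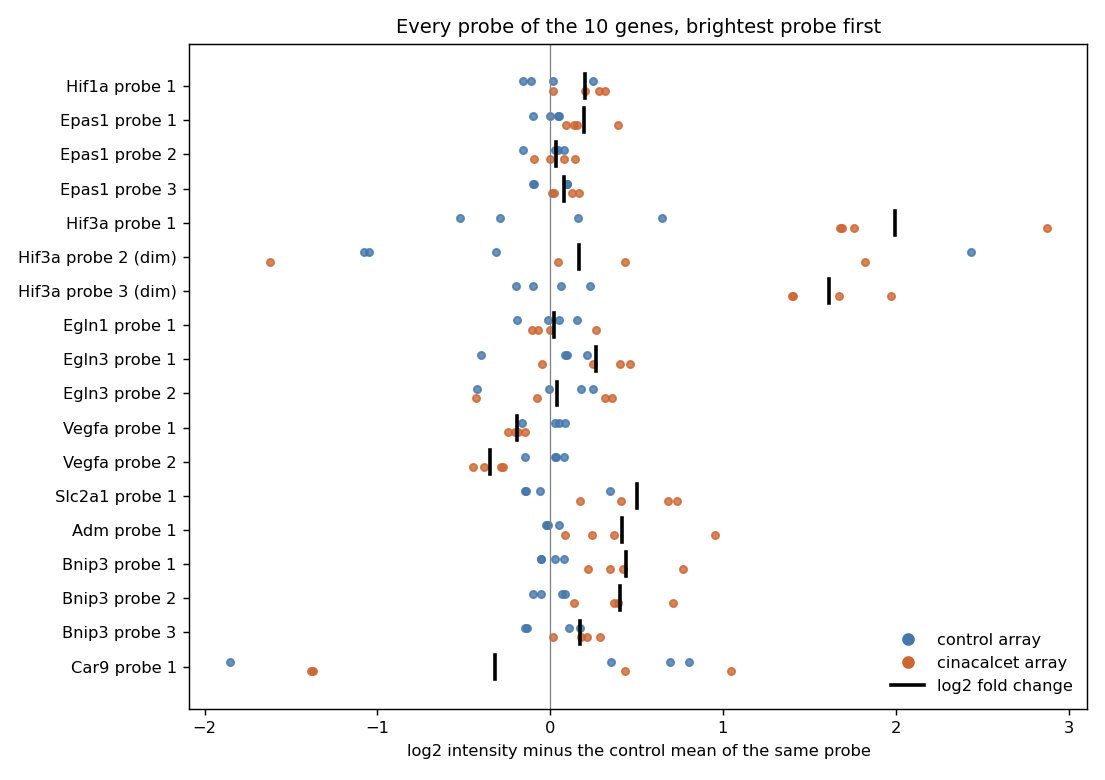
Each of the 18 probes of the 10 genes, as log2 intensity minus the probe's control mean, with 1 point per array and a black bar at the log2 fold change. Probes of a gene are ordered from the brightest, and the 2 Hif3a probes marked dim were not above background on enough arrays to be tested. Hif3a probes 1 and 3 separate the groups, but the values of probe 3 lie too near the detection limit to give a fold change. The probes of Epas1, Egln3, Vegfa and Bnip3 differ among themselves in the size of the difference.

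Of the 9 genes other than Hif3a, 7 had positive and 2 negative log2 fold changes, with a median of 0.20 where the median of all genes was -0.03. Of the 10 genes 1, Hif3a, is among the genes past a limma adjusted p of 0.05, which restates why it was listed, beside 8.02% of all genes tested. In 4 of the 10 genes the groups did not overlap, beside 17.8% of all genes. All 4 were higher with cinacalcet, as 8.01% of all genes were without overlap, while 9.8% of all genes were lower without overlap. The comparison was part of the choice of the genes, so nothing is read from these counts. The levels of Hif3a, Epas1, Adm, Bnip3 and Car9 were highest on cinacalcet 4, that is 5 of 10 genes, where cinacalcet 4 was the highest array for 13.9% of all genes. This array was singled out after its values were seen.

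To describe what went with Hif3a on the 8 arrays, all 13282 other genes above background on every array were ranked by the root mean square difference between their profile and that of Hif3a. Profiles were centred on the gene's own mean, so a small value means a similar shape and a similar size. The closest were Map3k6, a stress-activated protein kinase gene (0.30), Chrdl2, encoding a BMP-binding protein (0.39), and Zbtb16, a zinc-finger transcription factor gene (0.41). Next came Polr3e, an RNA polymerase III subunit (0.43), Tcf23, a basic helix-loop-helix factor (0.44), and Odf4, a gene of the sperm tail (0.44). These genes were picked for likeness to a gene chosen for its rise, so their own difference between groups is no separate result.

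Map3k6 was at 0.19, 0.41, 0.92 and 0.20 in controls and 1.87, 2.08, 2.19 and 2.54 with cinacalcet. Like Hif3a it was highest among controls on control 3 and highest of all on cinacalcet 4. Zbtb16 was at 1.18, 2.19, 3.10 and 1.20 in controls and 3.99, 3.96, 4.14 and 4.20 with cinacalcet, with the same order among controls as Hif3a. Chrdl2 was at -2.08, -1.70, -1.67 and -1.32 in controls and -0.19, 0.45, 0.18 and 1.52 with cinacalcet, with the highest value again on cinacalcet 4. With normexp background correction the log2 fold changes of Tcf23 and Odf4 shrank from 1.51 and 1.33 to 0.52 and 0.48, and the second probe of Polr3e gave 0.75 against 1.35.

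**Figure D3:**
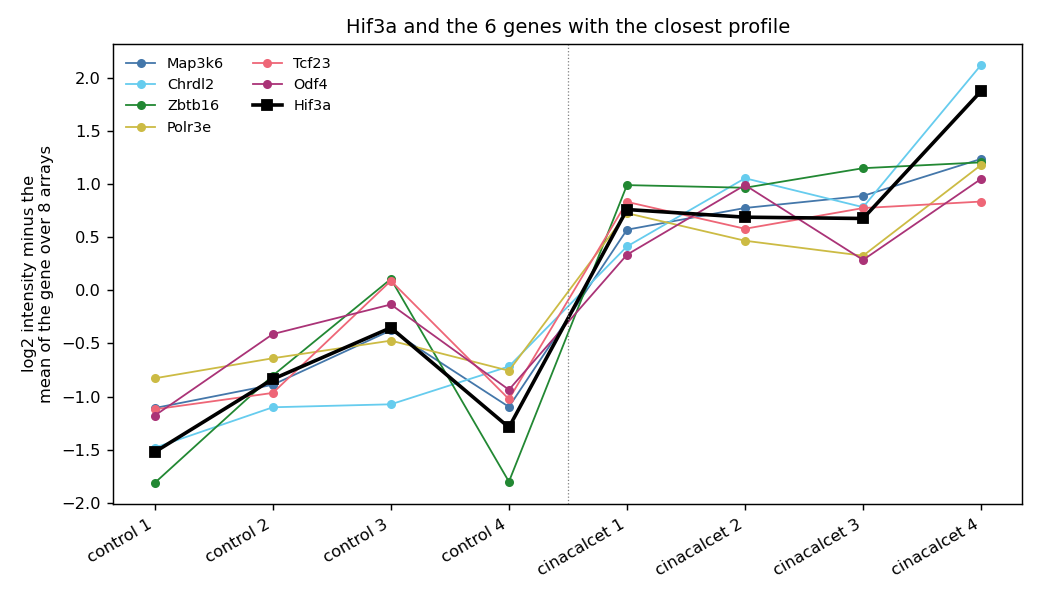
Profiles of Hif3a (black squares) and the 6 genes closest to it over the 8 arrays, as log2 intensity minus the gene's mean over the arrays. Lines only join the points of a gene, since replicates have no order. All 7 genes are lower on every control array than on every cinacalcet array, and 5 of them together with Hif3a have their highest control on control 3 where Chrdl2 has it on control 4.

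Of the other 9 genes, Adm and Bnip3 came nearest to Hif3a in this ranking, at ranks 288 and 311 of 13282, with root mean square differences of 0.87 and 0.88. Slc2a1 was at rank 784, Epas1 at 1581, Egln3 at 1698, Hif1a at 3801, Egln1 at 6831, Vegfa at 9331 and Car9 at 12788. Of 75 further genes of the pathway 72 were above background on every array and had a rank. Ddit4, an inhibitor of mTOR signalling, came first at rank 19, followed by Cp at 30 and Cited4 at 60. Ddit4 was at 4.23, 4.05, 4.95 and 3.53 in controls and 5.26, 4.93, 4.54 and 6.02 with cinacalcet, so the groups overlapped, and its log2 fold change of 0.99 (SE 0.37) did not pass (limma adjusted p = 0.131). These ranks were picked out after the values were seen.

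The difference between the groups in the further genes of the pathway was tested with limma over all 14209 genes. Their lists too were drawn up with earlier results of these data known, so the calls are not independent of them. They form 3 lists: regulators of HIF, HIF targets of glycolysis and other HIF targets. Of 19 regulators 2 rose, none fell and 17 did not pass, beside 3.37% of all genes that rose and 4.64% that fell. Of 19 glycolysis genes none passed, with 3 (15.8%) at an unadjusted p under 0.05, beside 27.9% of all genes. Of 37 measured other targets 1 rose, 9 fell and 27 did not pass. At an unadjusted p under 0.05 there were 8 regulators (42.1%) and 17 other targets (45.9%). The median log2 fold changes of the 3 lists were -0.11, -0.01 and -0.04, beside -0.03 for all genes. Counts of this kind are a description of the lists and not a test of them.

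The regulators that rose were Cited4 and Siah1a. Cited4, which encodes a coactivator-binding protein of the CITED family, was at 0.53, 0.57, 0.38 and 0.58 in controls and 1.06, 1.55, 1.31 and 1.69 with cinacalcet. Its groups did not overlap, and it rose 1.84-fold (limma adjusted p = 0.0140). Siah1a, a ubiquitin ligase of the family that acts on prolyl hydroxylases, rose by a log2 fold change of 0.54 (SE 0.10, adjusted p = 0.0228). With normexp background correction the Siah1a value was 0.22 and did not pass (adjusted p = 0.0589). Of the regulators that did not pass, 3 core ones are given for their role, after their values were seen. Vhl, the ligase subunit that binds hydroxylated HIF, had a log2 fold change of -0.13 (SE 0.12). The partner subunit Arnt had 0.06 (SE 0.06), and Hif1an, the asparagine hydroxylase, 0.03 (SE 0.12). Siah2, Cul2, Crebbp and Hsp90aa1, also named after their values were seen, had -0.51, -0.34, -0.32 and -0.44 (limma adjusted p of 0.0533 to 0.102). For these every cinacalcet array lay below every control, while for Arnt every cinacalcet array lay above. Of the 19 regulators, 7 had groups without overlap, beside 17.8% of all genes.

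Glycolytic HIF targets did not pass the threshold in either direction. Pgk1, phosphoglycerate kinase, was at 6.88, 6.92, 6.90 and 6.66 in controls and 6.53, 6.58, 6.50 and 6.62 with cinacalcet, without overlap. Its log2 fold change was -0.28 (SE 0.08, limma adjusted p = 0.0662), and it passed with the Y-linked split as a block (adjusted p = 0.0431). Pgam1, phosphoglycerate mutase, had -0.19 (SE 0.07, adjusted p = 0.115). The estimates of the 19 genes were divided into 9 positive and 10 negative.

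Among other HIF targets, Cp was the only gene to pass as higher in this fit, while 5 did with the Y-linked split as a block. Cp, encoding the copper-carrying ferroxidase ceruloplasmin, was at 1.90, 1.97, 1.89 and 2.01 in controls and 2.65, 3.20, 3.14 and 3.19 with cinacalcet. Controls lay within a narrow band, and the groups did not overlap. It rose 2.15-fold from 1.94 ± 0.06 to 3.05 ± 0.26 (SD), with a limma adjusted p of 0.00801. Of the 37 other targets, 16 had groups without overlap, beside 17.8% of all genes. Among those that did not pass, named after their values were seen, Flt1, Lox, Ndrg1 and Kdm4b had every cinacalcet array above every control. For Nos2 and Fam162a every cinacalcet array lay below.

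The targets that fell included collagen-modifying enzymes, a carbonic anhydrase and a mitophagy receptor. P4ha1, a subunit of the prolyl hydroxylase of collagen, was at 0.40, 0.63, 0.92 and 0.31 in controls and -0.19, -0.38, -0.21 and -0.57 with cinacalcet. It fell 1.87-fold (limma adjusted p = 0.0163), and its second probe gave a log2 fold change of -0.85 against -0.90. Plod2, a lysyl hydroxylase of collagen, fell from -0.40 ± 0.19 to -1.37 ± 0.31 (SD), or 1.96-fold (adjusted p = 0.0191).

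Car12, encoding carbonic anhydrase XII, fell 1.54-fold (limma adjusted p = 0.0203), from 5.38 to 5.60 in controls to 4.77 to 5.19 with cinacalcet. Bnip3l, the mitophagy receptor NIX and close relative of Bnip3, fell 1.28-fold (adjusted p = 0.0221). All 4 Bnip3l probes had negative log2 fold changes, from -0.36 to -0.25, whereas all 3 Bnip3 probes had positive ones, from 0.18 to 0.44. The other 5 that fell, named after their values were seen, were the cyclin gene Ccng2, the adenylate kinases Ak4 and Ak3, the mitochondrial gene Ndufa4l2 and the growth factor gene Pdgfb. Their log2 fold changes ran from -0.61 for Ak4 to -0.28 for Ak3, with adjusted p of 0.0250 to 0.0471. With normexp background correction Ccng2 went from -0.39 to -0.21 and did not pass (limma adjusted p = 0.102). With quantile normalization Bnip3l and Ak3 did not pass (adjusted p of 0.0547 and 0.0785). Without the probe filter neither Bnip3l nor any of these 5 passed (adjusted p of 0.0575 to 0.111). With the mean over its probes Pdgfb went from -0.31 to -0.50. Of the targets that did not pass, 3 well-known ones are given after their values were seen: Ankrd37 had a log2 fold change of -0.11 (SE 0.11), Kdm3a 0.16 (SE 0.08) and Ndrg1 0.39 (SE 0.13).

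**Figure D4:**
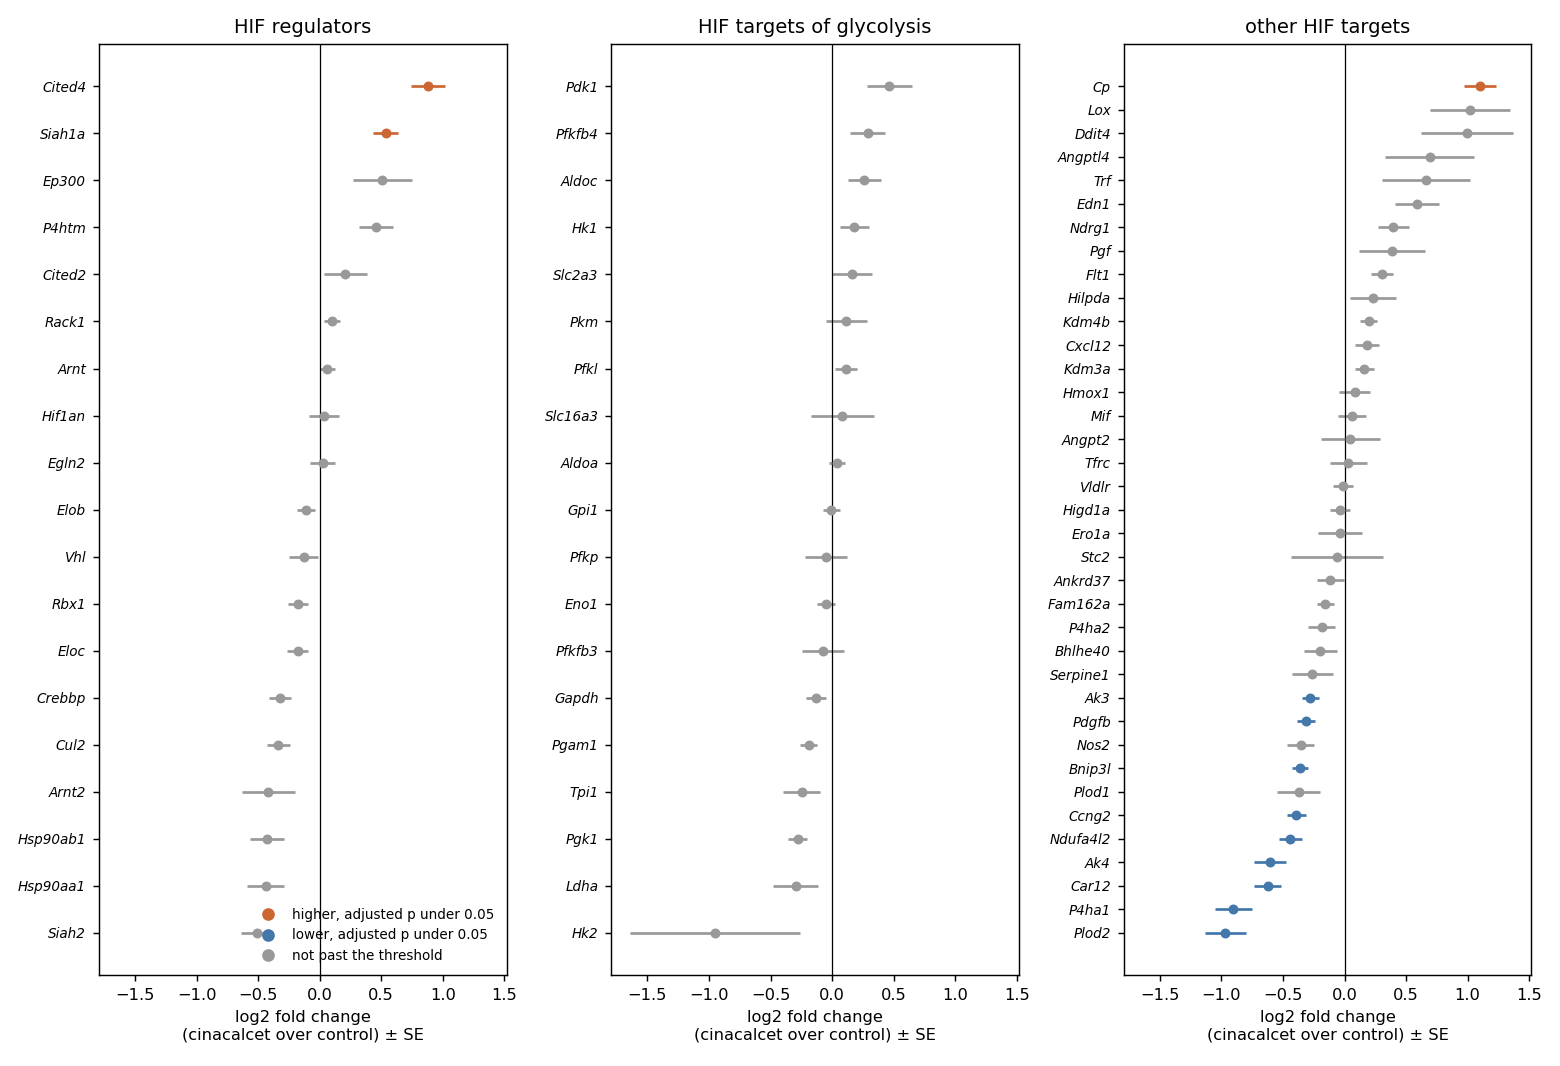
Log2 fold changes (cinacalcet over control) ± SE of the 75 measured genes in the 3 lists of further pathway genes, ordered within each list. Orange and blue points passed a limma adjusted p of 0.05 as higher or lower, and grey points did not. Regulators hold 2 orange points, glycolysis genes none of either colour, and other targets 1 orange and 9 blue points.

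These calls also depended on single arrays. Cited4 and Cp passed with each array left out. P4ha1 lost its call without control 2 or cinacalcet 2 (limma adjusted p of up to 0.0574), and Siah1a and Plod2 without control 2, control 3, cinacalcet 2 or cinacalcet 3 (up to 0.0708 and 0.0624). Car12 lost it without control 1, 2 or 3 or cinacalcet 2 or 3, and Bnip3l without control 1, 2 or 3 or cinacalcet 2 (up to 0.0679 and 0.0754). The 5 genes outside the rule lost it without any 1 of at least 4 arrays, with adjusted p of up to 0.131. The count of other targets past the threshold was 10 in all and fell to 4, 1 and 2 without control 1, 2 or 3 and to 1 and 3 without cinacalcet 2 or 3. Without control 4 the regulators past the threshold numbered 8 (3 higher, 5 lower) and the glycolysis genes 5 (1 higher, 4 lower). With the Y-linked split as a block all 21 named calls, markers included, held, and with the 3 arrays left out 10 of the 21 did. Cited4 was then at an adjusted p of 0.0600 and Cp at 0.0385.

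Some transcripts of other cell types differed between the groups, while other markers did not. All 8 endothelial markers, among them Pecam1, Cdh5 and Tek, were measured, and none passed, with log2 fold changes of -0.07 to 0.23 and a list mean of 1.26 to 1.41 in controls and 1.28 to 1.45 with cinacalcet. Of 6 interstitial and pericyte markers the collagen genes Col3a1 and Col1a1 fell (log2 fold changes of -1.43 and -1.27, limma adjusted p of 0.0286 and 0.0467), and Pdgfra rose (0.60, adjusted p = 0.0385). Their list mean was 0.02 to 0.56 in controls and -0.34 to 0.15 with cinacalcet. These stand beside the falls of P4ha1 and Plod2, and their part in them was not tested.

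Of 5 measured erythroid markers 4 fell, and the list mean was 4.74 to 5.18 in controls and 2.68 to 4.09 with cinacalcet. Hbb-bt, a beta-globin gene, had a log2 fold change of -2.53 (limma adjusted p = 0.0128). Alas2, the erythroid enzyme of haem synthesis, had -2.26 (adjusted p = 0.0191), and the alpha-globin gene Hba-a1 had -1.92 (adjusted p = 0.0209). Bnip3l is also abundant in maturing red cells, and the part of these cells in its fall was not tested. Of 6 measured adipose markers 1 fell, Ucp1 of brown fat (log2 fold change -5.73, adjusted p = 0.0140). Ucp1 was well above background on all 4 control arrays but only 2 of 4 cinacalcet arrays, so the size of its fall is uncertain. The adipose mean was 1.64, 1.23, 0.74 and 3.48 on control arrays 1 to 4 and -1.21, 1.49, -2.11 and 0.50 on cinacalcet arrays 1 to 4, so the groups overlapped. Hif3a is known to be expressed in fat as well, and the part of fat in its level was not tested. Of 5 measured immune markers the macrophage genes Adgre1 and Csf1r fell (log2 fold changes of -1.65 and -0.56, adjusted p of 0.0200 and 0.0209), with a list mean of 1.56 to 1.77 in controls and 0.95 to 1.36 with cinacalcet. The other 3 did not pass, with -0.54 for Ptprc, -0.20 for Cd3e and 0.15 for the myeloid gene Itgam. Adrenal markers had 2 of 4 measured with neither past the threshold, and none of 4 skeletal muscle markers was measured. With normexp background correction the log2 fold changes of Ucp1 and Adgre1 were -3.02 and -0.78. Of the markers named here, Ucp1 and Hbb-bt passed with each array left out. The others, Col3a1, Col1a1, Pdgfra, Alas2, Hba-a1, Adgre1 and Csf1r, each lost their call without control 2 and without control 3, among other arrays, with adjusted p of up to 0.122.

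Epo, the erythropoietin gene and the best known HIF-2 target of the kidney, was not well above background on any of the 8 arrays, so these data place no level on it. Mxi1 was above background on 2 cinacalcet arrays and Cxcr4 on 1 array of each group, and neither was tested.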

How the data were processed

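The deposited files are scanner output with spot intensity on a linear scale, made with Agilent Feature Extraction 11.0.1.1 per the file headers, while the submitters' processing notes name version 9.5. The deposited processed intensity had been background-subtracted and spatially detrended, per the file headers. Here control spots and spots flagged as outliers were left out, spots of a probe were averaged as log2, and each array's 75th percentile over 59305 spots was subtracted. No spot was saturated. Probes were named by accession through a RefSeq gene table (GRCm38.p6), which named 27235 of 55681. The array's own annotation is on another build, so gene coordinates are not given. A probe was kept if at least 4 of the 8 arrays showed it well above background, and the brightest stood for its gene.

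Groups were compared with limma 3.58.1 in R 4.3.3 (lmFit, eBayes, Benjamini-Hochberg over 14209 genes), and the fit was tested on simulated data. There it recovered 28% of genes changed by a log2 value of 0.5 and 88% of those changed by 2. The simulated noise was drawn independently for each gene and array, without the Y-linked split. The simulation therefore does not show how stable the calls in these data are. The 10 genes and the lists were chosen with earlier results of these data known. Named are the 10 genes, up to 5 called genes per pathway list or the 2 with the lowest p where none passed, the 6 closest profiles, and up to 3 called markers per list. Alternatives were other normalization, background correction, filters, gene summaries, variance models, array weights, the replicate number, slide row or Y-linked signal as a block, fits within rows, and single arrays left out. Normexp was run on the median signal, the column used here for it. Slide and scan time could not be tested, as there was 1 of each.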

Additional observations from a re-analysis of the deposited data

Results flagged for a closer look

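In groups of 4 arrays, a value was picked out where its gap to the nearest other array, divided by the group's range, exceeded the critical value of Dixon's test. Of 80 groups examined 8 had such a value, and chance gives about 1 in 20. Cinacalcet 4 was set apart for Hif3a, at 1.41 against 0.22 to 0.30 on the other cinacalcet arrays, and for Ak3, at 5.17 against 5.02 to 5.04. Control 4 was set apart for Car9, at -1.20 against 1.01 to 1.45, for Adm, at 0.37 against 0.29 to 0.30, and for Pgk1, at 6.66 against 6.88 to 6.92. Control 4 was also the only control array without Y-linked signal, a split for which the 1 in 20 makes no allowance. Cinacalcet 1 was set apart for Cp, at 2.65 against 3.14 to 3.20, and for Car12, at 5.19 against 4.77 to 4.82. Control 3 was set apart for Tcf23, at -2.87 against -4.08 to -3.93.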

How the results depend on the processing

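The log2 fold change of Hif3a stayed positive in all 22 alternatives, from 1.31 within slide row 1 to 2.69 within row 2, and from 1.71 to 2.21 with single arrays left out. Since every cinacalcet array lay above every control, leaving out arrays, weighting them or adding a block could not change its sign. The count of genes past the threshold, 1139 in limma, was 367 without the filter, 5438 with array weights, 2417 with Y-linked signal as a block, 1 and 0 within rows 1 and 2, and 218 to 3356 with single arrays left out. With replicate number as a block (replicate block) 0 genes passed in limma, with 2869 at an unadjusted p under 0.05, and 0 regulators and 0 other targets, with 8 and 15. Samples of the same number deviated together for 1 of 4 numbers (correlations of 0.34, -0.54, -0.36 and -0.56). Where the correlation was negative, 1 sample of the number had Y-linked signal and the other did not. The correlations therefore cannot decide whether the numbers pair the samples. Within rows 1 and 2 limma gave 3860 and 1068 genes at an unadjusted p under 0.05. Regulators past the threshold, 2 in all and both higher, were 4 (2 higher, 2 lower) with quantile normalization or with trend and robust. They were 10 (3 higher, 7 lower) with array weights and 5 (3 higher, 2 lower) with the Y-linked block. They were 1 with normexp or no filter, 0 within either row, and 1 to 8 with single arrays left out. Glycolysis genes, 0 in all, were 1 (lower) with trend and robust or the Y-linked block, and 1 (higher) on the arrays with Y-linked signal alone. They were 8 (3 higher, 5 lower) with array weights, and 0 to 5 with single arrays left out. Other targets, 10 in all (1 higher, 9 lower), were 15 (5 higher, 10 lower) with the Y-linked block. They were 19 (7 higher, 12 lower) with array weights and 4 (1 higher, 3 lower) without the filter. Dropping the 3 arrays that lacked Y-linked signal left 5 (2 higher, 3 lower). Within either row they were 0, and with single arrays left out 1 to 12. The causes were not tested. Of 21 named tested genes past the threshold none changed sign in any alternative. None of the 21 had overlapping groups, so leaving out arrays, weighting them or adding a block could not change a sign. The 4 arrays per group limit what can be detected.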
